A study of Mus musculus with 8 samples.

Results

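Transcripts of 8 genes that mark dendritic cells or direct their development were followed in bulk RNA sequencing of mouse alveolar macrophages: Zbtb46, Flt3, Clec9a, Xcr1, Cd209a, Irf4, Irf8 and Batf3. They were taken by symbol, and each matched 1 row, so that 8 of the 37310 genes of the count table are described. Alveolar macrophages are the resident phagocytes of the airspaces. The study held 4 groups of 2 libraries, each library from a pool of 3 mice or cultures. The group exAM was C57BL/6 alveolar macrophages expanded in culture for 2 months and not sorted. The group texAM was such expanded cells, delivered through the trachea into C57Bl/6-Ly5.1 recipients and recovered after 4 months. The group tAM was C57BL/6 alveolar macrophages labelled as transplanted, with no expansion named, and recovered after 4 months. HostAM were the recipient strain's own cells. All lung groups were sorted from whole lung as SiglecF+ and CD11c+ cells, with CD45.2+ for texAM and tAM and CD45.1+ for HostAM. Donor and recipient mice were 8 weeks old at the start. Whether the HostAM mice had received cells or PBS is not given in the sources used here, so strain and treatment cannot be told apart in comparisons with HostAM.

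Dendritic cells take up antigen and present it to T cells. They develop from progenitors that need the receptor tyrosine kinase Flt3 and its ligand, and the zinc finger factor Zbtb46 marks the conventional lineages. One conventional type, cDC1, depends on Irf8 and Batf3 and carries the chemokine receptor Xcr1 and Clec9a, a C-type lectin that binds actin exposed on dead cells. The other, cDC2, depends more on Irf4, and Cd209a, a C-type lectin related to human DC-SIGN, is used to mark part of it. Irf8 also acts in macrophages, and conventional dendritic cells share CD11c with alveolar macrophages, so the markers are read here as transcripts and not as cells.

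Promoter sequence is shown for 4 members, chosen for the contrast between them: Flt3 and Cd209a, with no count in cultured cells, Clec9a, highest there, and Irf8, nearly level in all groups. Each run is 300 bases of RefSeq sequence on GRCm38.p6, read 5′ to 3′ along the gene. Flt3 is at chr5:147400440-147400739 on the minus strand, Cd209a at chr8:3748935-3749234 on the minus strand, Clec9a at chr6:129408612-129408911 on the plus strand and Irf8 at chr8:120736108-120736407 on the plus strand. Capitals mark matches to a searched motif.
Flt3: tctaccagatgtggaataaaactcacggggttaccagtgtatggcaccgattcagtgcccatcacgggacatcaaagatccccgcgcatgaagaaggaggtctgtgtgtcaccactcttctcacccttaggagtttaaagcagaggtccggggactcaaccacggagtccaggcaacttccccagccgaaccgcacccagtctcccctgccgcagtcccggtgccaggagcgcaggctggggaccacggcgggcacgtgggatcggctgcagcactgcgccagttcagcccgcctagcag
Cd209a: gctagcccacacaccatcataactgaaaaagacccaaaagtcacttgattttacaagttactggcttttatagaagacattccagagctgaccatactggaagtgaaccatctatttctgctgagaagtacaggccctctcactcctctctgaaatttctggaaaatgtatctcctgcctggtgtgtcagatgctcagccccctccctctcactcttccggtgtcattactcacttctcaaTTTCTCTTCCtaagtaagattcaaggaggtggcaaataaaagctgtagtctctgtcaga
Clec9a: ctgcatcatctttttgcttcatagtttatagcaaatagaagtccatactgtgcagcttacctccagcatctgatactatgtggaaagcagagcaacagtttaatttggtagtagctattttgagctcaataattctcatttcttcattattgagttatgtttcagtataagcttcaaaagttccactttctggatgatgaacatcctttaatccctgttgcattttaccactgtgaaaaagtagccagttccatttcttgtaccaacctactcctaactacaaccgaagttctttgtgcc
Irf8: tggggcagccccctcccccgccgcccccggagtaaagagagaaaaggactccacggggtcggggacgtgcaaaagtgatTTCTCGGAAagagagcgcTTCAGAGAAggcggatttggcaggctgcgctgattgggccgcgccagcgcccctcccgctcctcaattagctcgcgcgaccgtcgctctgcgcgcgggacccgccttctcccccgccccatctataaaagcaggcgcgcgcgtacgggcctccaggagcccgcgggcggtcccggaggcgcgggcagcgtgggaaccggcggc

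A set of 4 motifs was searched on both strands: an IRF repeat (GAAA, 2 bases of any kind, then GAAA), an ETS-IRF composite (GGAA, 2 bases of any kind, then GAAA), the AP-1 site TGANTCA and the STAT site known as GAS, TTCNNNGAA. The Irf8 run held 2 GAS matches, at bases 80 to 88 and 98 to 106 of the run, and the Cd209a run held 1 ETS-IRF match, at bases 242 to 251, on the opposite strand. The runs of Flt3 and Clec9a held none of the 4. Irf8 has a second promoter in this set, at chr8:120738389-120738688 on the plus strand and not shown, which held none either. Among the promoters of the other members, that of Zbtb46 held 1 AP-1 match and that of Batf3 held 1 GAS match, and those of Xcr1 and Irf4 held none. No match overlapped another in these runs. Of all 32851 promoters of this length, 8.3% held the GAS motif, 2.72% the ETS-IRF motif, 7.81% the AP-1 motif and 3.44% the IRF repeat. These matches are a description of the letters in these windows.

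Library depth ran from 6546272 to 9154128 counts, and 14537 genes passed the filter on low counts, all 8 members among them. Levels are CPM, counts scaled to a common library size after TMM, a trimmed-mean correction for library composition. Differences were tested over all 14537 genes by edgeR's quasi-likelihood test with Benjamini-Hochberg adjustment, and a gene was called where its adjusted p was under 0.05. In exAM against tAM 44.7% of all tested genes were called, against HostAM 44.2%, and in texAM against exAM 43.7%. Among the lung groups few were. Macrophage genes were present in every library, with Siglecf at 144 to 343 CPM and no member of a list of 15 macrophage genes at 0. Counts of some highly covered genes hardly varied: Cd68 had 2243 to 2285 counts and Lyz2 2077 to 2137 in all 8 libraries, so that their CPM mostly follows library size. A limit of 0.5 counts per base of the longest transcript, reached by 1633 genes in at least 1 library, was taken to mark genes that this can touch. Of the 15 macrophage genes 13 reached it, so the list is not compared between groups. No member reached it, the nearest being Irf8, at most 0.464. On lists described below, 7 of 23 IRF and BATF genes and partners, 4 of 14 cDC1 and 4 of 11 cDC2 genes reached the limit. So did 5 of 13 epithelial and mesenchymal genes, and at most 2 on any other list. These lists are still compared between groups, with this limit. Of the other listed genes named, Siglecf, Epcam, Sirpa, Ly75, Itgax, Batf, Irf3, Spi1, Id2, Zeb2, Il7r, Cd2, Cd22, Cdh1 and Bpifa1 reached it. How far their differences are compressed was not tested. The tests measure the spread between pools, and whether the pools of a group came from separate experiments is not stated.

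Of the 8 members, 6 were lower and 1 was higher in exAM than in HostAM, beside 23.3% and 20.9% of all tested genes. In exAM against tAM 3 were lower and 1 was higher, beside 23.2% and 21.5%. In texAM against exAM 6 were higher and 1 was lower, beside 23.2% and 20.5%. The median log2 difference over the 8 was -1.95 for exAM over HostAM, -1.28 for exAM over tAM and 1.75 for texAM over exAM, the last 1.67 with the genes at 0 set to their bound. Over all tested genes these medians were -0.08, -0.09 and 0.11. The 3 comparisons share the exAM libraries and are not separate results. Cd209a is counted in all 3 and in their medians, though it passed the filter on low counts through HostAM alone. No member was called by edgeR among the lung groups. Of all tested genes 0.00688% were called in texAM against tAM (0.00688% higher, 0% lower), 0.330% in texAM against HostAM (0.248% higher, 0.0825% lower) and 0.0413% in tAM against HostAM (0.0206% higher, 0.0206% lower). At an unadjusted p under 0.05 there were 2 in texAM against tAM, 1 in texAM against HostAM and 3 in tAM against HostAM, beside 7.84%, 13.2% and 10.0% of all tested genes, and the DESeq2 Wald test called 1, 0 and 0. With 2 libraries a group, lack of overlap was common. In exAM against tAM 7 members did not overlap, in texAM against exAM 7 and in exAM against HostAM 8. Of all tested genes 76.3%, 77.4% and 73.7% did not. In texAM against tAM 4 members did not overlap, in texAM against HostAM 3 and in tAM against HostAM 5. Of all tested genes 42.1%, 42.8% and 37.8% did not.

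**Figure D1:**
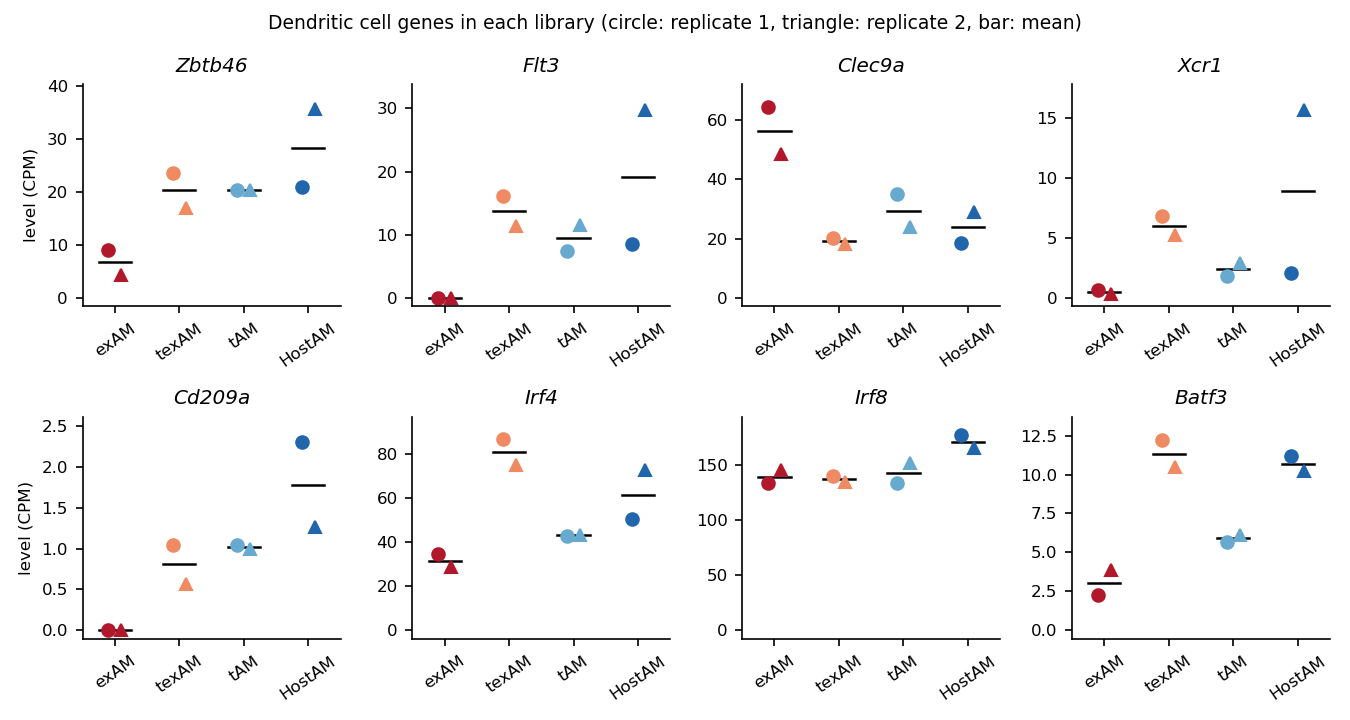
Level in CPM (vertical axes, linear, each panel on its own scale) of the 8 genes in the 4 groups, with 1 symbol per library (circle for replicate 1, triangle for replicate 2) and a bar at the mean. Flt3 and Cd209a stood at 0 in both exAM libraries, Clec9a was highest in them, and the second HostAM library was set apart for Flt3 and Xcr1.

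Zbtb46 (ENSMUSG00000027583, chromosome 2, 181387762 to 181459426, minus strand) encodes the factor used to tell conventional dendritic cells from macrophages and monocytes. It stood at 9.08 and 4.32 CPM in exAM, 23.6 and 17.0 in texAM, 20.3 and 20.4 in tAM, and 21.0 and 35.7 in HostAM. Every lung library was above both cultured libraries, and the second HostAM library was above all others. The mean was 6.70 ± 3.37 CPM (SD, n = 2) in exAM and 20.3 ± 0.0891 in tAM, 3.04-fold lower (log2 -1.61, SE 0.40, edgeR adjusted p = 0.00861). Against HostAM, at 28.4 ± 10.4 CPM, exAM was 4.24-fold lower (edgeR adjusted p = 0.00209), and texAM, at 20.3 ± 4.66 CPM, was 3.03-fold higher than exAM (edgeR adjusted p = 0.0089). Without exAM replicate 2 the differences from tAM and texAM were not called (edgeR adjusted p = 0.0745 and 0.0792), nor was that between texAM and exAM without texAM replicate 1 (edgeR adjusted p = 0.0588). Between texAM and tAM the log2 difference was 0, with a 95% interval of -0.83 to 0.82. These are bulk libraries, in which fewer cells of a type and less RNA per cell cannot be told apart.

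Flt3 (ENSMUSG00000042817, chromosome 5, 147330741 to 147400489, minus strand), the growth factor receptor of dendritic cell progenitors, had 0 counts in both exAM libraries. In the lung it had 154 and 100 counts in texAM, 64 and 92 in tAM, and 78 and 259 in HostAM, or 16.1 and 11.4, 7.42 and 11.5, and 8.59 and 29.8 CPM. No lung library was near 0, and the ranges of texAM, tAM and HostAM ran into each other. A total of 3 counts over the exAM group corresponds to 0.243 CPM, and against that floor exAM was at least 38.9-fold lower than tAM, 56.4-fold lower than texAM and 78.8-fold lower than HostAM (edgeR adjusted p = 0.000611, 0.000372 and 0.00024). Without HostAM replicate 2 the last bound was 35.3-fold, and without replicate 1 it was 122-fold. With 1 exAM library left out the floor rises to 0.462 or 0.514 CPM, and the bounds were 18.4-fold to 20.5-fold for tAM, 26.7-fold to 29.7-fold for texAM and 37.3-fold to 41.5-fold for HostAM. Floors cover counting error only. In the lung comparisons the log2 differences were 0.54 (95% interval -0.72 to 1.79) for texAM over tAM, -0.48 (-1.71 to 0.75) for texAM over HostAM and -1.02 (-2.27 to 0.24) for tAM over HostAM.

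Xcr1 (ENSMUSG00000060509, chromosome 9, 123852315 to 123862029, minus strand), the receptor for the chemokine Xcl1 and the most restricted cDC1 marker of the 8, was the member that differed most between pools of 1 group. It had 4 and 2 counts in exAM, 65 and 46 in texAM, 16 and 23 in tAM, and 19 and 137 in HostAM. In CPM these were 0.685 and 0.308, 6.78 and 5.24, 1.85 and 2.88, and 2.09 and 15.7. The first HostAM library lay among the tAM libraries and the second above every other. The texAM mean of 6.01 ± 1.09 CPM was 12.1-fold that of exAM (log2 3.58, SE 1.00, edgeR adjusted p = 0.0152). This call was lost without texAM replicate 1 (edgeR adjusted p = 0.0503), exAM replicate 1 (0.0556) or exAM replicate 2 (0.106). Against HostAM, exAM was 18.0-fold lower (edgeR adjusted p = 0.00726). Without HostAM replicate 2 the log2 difference went from -4.14 to -2.05 and was not called (edgeR adjusted p = 0.0825), and without exAM replicate 2 it was -3.66 (edgeR adjusted p = 0.0637). Against tAM, at 2.37 ± 0.725 CPM, the log2 difference of -2.23 did not pass (95% interval -4.50 to 0.04, edgeR adjusted p = 0.0996), but did without a filter on low counts (edgeR adjusted p = 0.0169) and with only the 4 libraries compared (edgeR adjusted p = 0.0325).

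Clec9a (ENSMUSG00000046080, chromosome 6, 129408862 to 129424763, plus strand) went the other way. It stood at 64.4 and 48.6 CPM in exAM, against 20.3 and 18.3 in texAM, 34.9 and 24.0 in tAM, and 18.6 and 29.0 in HostAM. Both cultured libraries lay above all 6 lung libraries. The exAM mean of 56.5 ± 11.2 CPM was 2.92-fold that of texAM (edgeR adjusted p = 0.00161), 2.37-fold that of HostAM (edgeR adjusted p = 0.00512) and 1.92-fold that of tAM (edgeR adjusted p = 0.0202). The last was not called without tAM replicate 2 or without exAM replicate 1 (edgeR adjusted p = 0.14 in each), nor with library size alone as the scale (log2 0.73, edgeR adjusted p = 0.055). Exons of Clec9a share 184 of 3293 bases with its neighbour Clec1b on the same strand, and how reads in that stretch were counted is not given in the sources used here. Clec1b, a lectin of platelets and some myeloid cells chosen here for this overlap, was at 16.4 and 19.9 CPM in exAM and 42.6 to 68.7 CPM in the lung, the opposite order. Xcr1 and Cd209a were at or near 0 in the cultured libraries in which Clec9a was highest.

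Cd209a (ENSMUSG00000031494, chromosome 8, 3743397 to 3748984, minus strand) was the member with the fewest counts. It entered the test through HostAM alone, since in no other group did a library reach the filter's level, 10 counts at the median library size. It had 0 counts in both exAM libraries, 10 and 5 in texAM, 9 and 8 in tAM, and 21 and 11 in HostAM. The highest library, HostAM replicate 1, reached 2.31 CPM and is not the one that was highest for Xcr1 and Flt3. Against the floor, exAM was at least 4.20-fold lower than tAM, 3.31-fold lower than texAM and 7.35-fold lower than HostAM (edgeR adjusted p = 0.0222, 0.0306 and 0.0108). With 1 exAM library left out the bounds were 1.99-fold to 2.21-fold, 1.57-fold to 1.74-fold and 3.48-fold to 3.87-fold. With any 1 library left out, the differences from tAM and texAM were not called (edgeR adjusted p from 0.0598 to 0.112 and from 0.0612 to 0.137). The difference from HostAM was not called without exAM replicate 1 (edgeR adjusted p = 0.0696) or 2 (0.0736). It belongs to a family of related lectin genes, and how reads shared among them were counted is not given in the sources used here.

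The interferon regulatory factors parted. Irf8 (ENSMUSG00000041515, chromosome 8, 120736358 to 120756694, plus strand), needed for cDC1 and also present in macrophages, was the most abundant member per length in every group, at 39.5 to 49.4 CPM per kilobase of the longest transcript. It stood at 133 and 145 CPM in exAM, 139.9 and 134 in texAM, 133 and 152 in tAM, and 177 and 165 in HostAM. The exAM, texAM and tAM groups overlapped, and both HostAM libraries lay above the other 6. The log2 difference was -0.03 (95% interval -0.29 to 0.22, edgeR adjusted p = 0.83) for exAM over tAM and -0.02 (-0.28 to 0.24, edgeR adjusted p = 0.9) for texAM over exAM. For exAM over HostAM it was -0.30 (-0.56 to -0.05, edgeR adjusted p = 0.056), which passed with library size alone as the scale (log2 -0.48, edgeR adjusted p = 0.00761) and with a minimum of 50 counts (log2 -0.33, edgeR adjusted p = 0.0367).

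Irf4 (ENSMUSG00000021356, chromosome 13, 30749226 to 30766976, plus strand), the factor of cDC2 and of alternatively activated macrophages, was lowest in culture and highest in the expanded cells recovered from the lung. It stood at 34.4 and 28.5 CPM in exAM, 86.9 and 75.2 in texAM, 42.9 and 43.4 in tAM, and 50.5 and 72.6 in HostAM. The 4 groups did not overlap, in the order exAM, tAM, HostAM and texAM. For a single pair of groups this held for 73.7% to 77.4% of all tested genes with exAM and 37.8% to 42.8% among the lung groups. The texAM mean of 81.0 ± 8.25 CPM was 2.57-fold that of exAM, at 31.5 ± 4.18 CPM (log2 1.37, SE 0.21, edgeR adjusted p = 0.000501), and HostAM was 1.96-fold above exAM (edgeR adjusted p = 0.00384). No difference between neighbours in that order was called: tAM was 1.37-fold above exAM (edgeR adjusted p = 0.0995, and 0.0264 with library size alone as the scale), HostAM 1.43-fold above tAM (edgeR adjusted p = 0.43) and texAM 1.32-fold above HostAM (edgeR adjusted p = 0.436). Between texAM and tAM the log2 difference was 0.91 (SE 0.20, 95% interval 0.46 to 1.36, unadjusted p = 0.00107, edgeR adjusted p = 0.375). It was called by the DESeq2 Wald test (adjusted p = 0.0317) and by edgeR without a filter on low counts (adjusted p = 0.00512).

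Batf3 (ENSMUSG00000026630, chromosome 1, 191097847 to 191108945, plus strand), the AP-1 family factor that pairs with Irf8 in cDC1, stood at 2.23 and 3.85 CPM in exAM, 12.2 and 10.5 in texAM, 5.68 and 6.14 in tAM, and 11.2 and 10.2 in HostAM. texAM and HostAM overlapped and lay above tAM, and tAM above exAM. The texAM mean of 11.3 ± 1.22 CPM was 3.73-fold that of exAM, at 3.04 ± 1.15 CPM (edgeR adjusted p = 0.00521), and that of HostAM, 10.7 ± 0.705 CPM, was 3.53-fold (edgeR adjusted p = 0.00655). Without exAM replicate 1 neither was called (edgeR adjusted p = 0.057 and 0.0652). The tAM mean of 5.91 ± 0.322 CPM was 1.94-fold above exAM (95% interval of log2 exAM over tAM -1.91 to 0.01, edgeR adjusted p = 0.0982), and texAM was 1.92-fold above tAM (95% interval of log2 0.05 to 1.83, unadjusted p = 0.041, edgeR adjusted p = 0.632), neither a call.

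**Figure D2:**
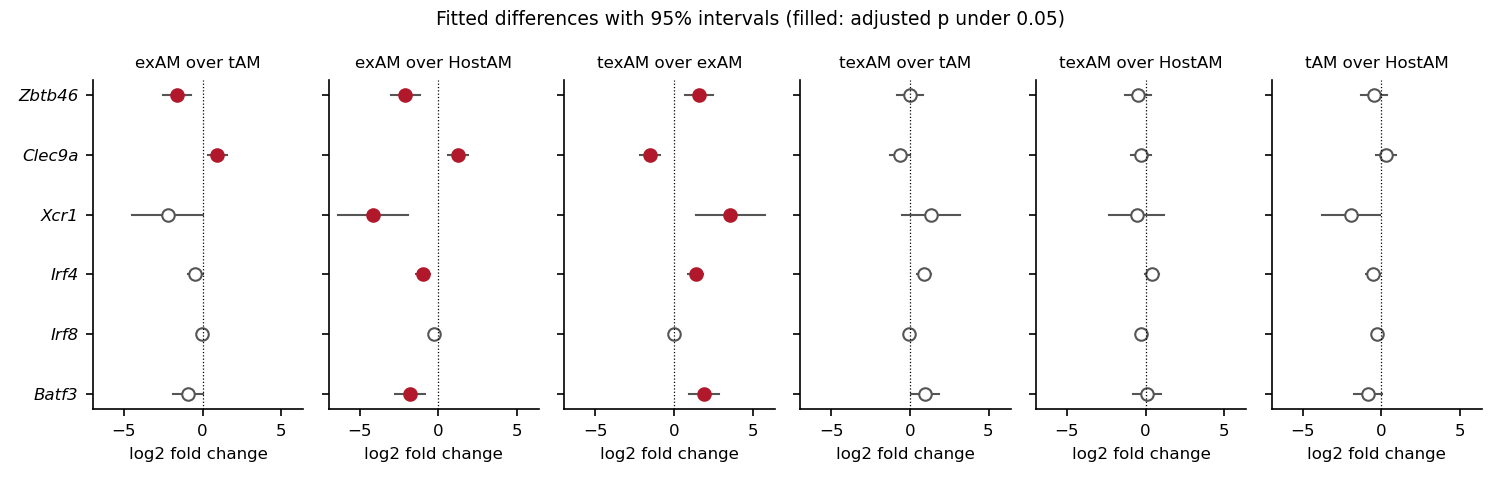
Log2 fold change (horizontal axes) of the 6 members with counts in every group, in 6 comparisons, each point the fitted difference and each line its 95% interval. Filled points passed an adjusted p of 0.05: they stand only in the panels that hold exAM, Clec9a opposite in sign to the others, and Irf8 in none.

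Per kilobase of the longest transcript, the levels had a different order in culture and in the lung. In exAM the order was Irf8 (40.1 CPM per kilobase), Clec9a (17.1), Irf4 (6.60), Batf3 (2.74), Zbtb46 (1.26), Xcr1 (0.112), then Flt3 and Cd209a at 0. In texAM it was Irf8 (39.5), Irf4 (17.0), Batf3 (10.2), Clec9a (5.87), Zbtb46 (3.82), Flt3 (3.47), Xcr1 (1.35) and Cd209a (0.544). In tAM Irf4 (9.06 ± 0.0836) and Clec9a (8.95 ± 2.33) were within their spread of each other, and so were Zbtb46 (5.35 ± 1.96) and Flt3 (4.85 ± 3.79) in HostAM.

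The pools of HostAM differed more in some members than in others. Replicate 2 was 3.47-fold replicate 1 for Flt3, 7.53-fold for Xcr1, 1.70-fold for Zbtb46, 1.56-fold for Clec9a and 1.44-fold for Irf4, while Cd209a was 0.547-fold and Irf8 and Batf3 were 0.933-fold and 0.911-fold. A gap as wide as that of Xcr1 was seen between these pools in 0.922% of all tested genes, and one as wide as that of Flt3 in 4.28% (on log2 of CPM plus 0.5). Xcr1 is singled out as the widest gap of the 8. It had 19 counts in replicate 1, and the shares are over genes of any level, so they do not measure how rare its gap is. For Zbtb46, Cd209a, Clec9a and Irf4 these shares ran from 20.0% to 30.5%. Of 14 tested genes on a list of other cDC1 genes, 12 were higher in replicate 2 and 6 at least 1.5-fold higher, beside 50.4% and 14.7% of all tested genes. Among them, chosen after their values were seen, Cadm1, an adhesion molecule of cDC1, was at 2.97 and 20.0 CPM, the integrin Itgae at 17.4 and 37.2, and the inhibitory receptor Btla at 2.20 and 12.1. Of 11 genes shared by dendritic cells, 8 were at least 1.5-fold higher in replicate 2, with the growth factor receptor Kit at 8.59 and 23.0 CPM.

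Other lists also differed. Of 11 tested T and NK genes, 9 were at least 1.5-fold higher in HostAM replicate 2, beside 14.7% of all tested genes. On lists described below, the share was 44.4% for monocyte and granulocyte, 33.3% for B lymphocyte and 33.3% for plasmacytoid genes. It was 30.8% for epithelial and mesenchymal and 0% for IRF and BATF genes. In tAM replicate 2 the shared dendritic cell and T and NK lists each reached 45.5%, beside 10.6% of all tested genes. Chosen after their values were seen, Cd8a was at 1.54 and 17.1 CPM in HostAM and the cytotoxic granule gene Nkg7 at 0.220 and 12.9 CPM. In texAM Cd8a was at 1.46 and 2.16 CPM and Nkg7 at 2.19 and 1.82. Apart from Cd2 and Il7r, which made up most of it, the summed level of the T and NK list was 26.5 and 97.9 CPM in HostAM, 61.5 and 135 in tAM and 262 and 209 in texAM. The part of other cells in the HostAM values was not tested. Without HostAM replicate 2 the log2 difference of tAM over HostAM went from -1.91 to 0.17 for Xcr1 and from -1.02 to 0.14 for Flt3. That of texAM over HostAM went from -0.57 to 1.5 and from -0.48 to 0.66. None of these differences was called with all libraries.

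**Figure D3:**
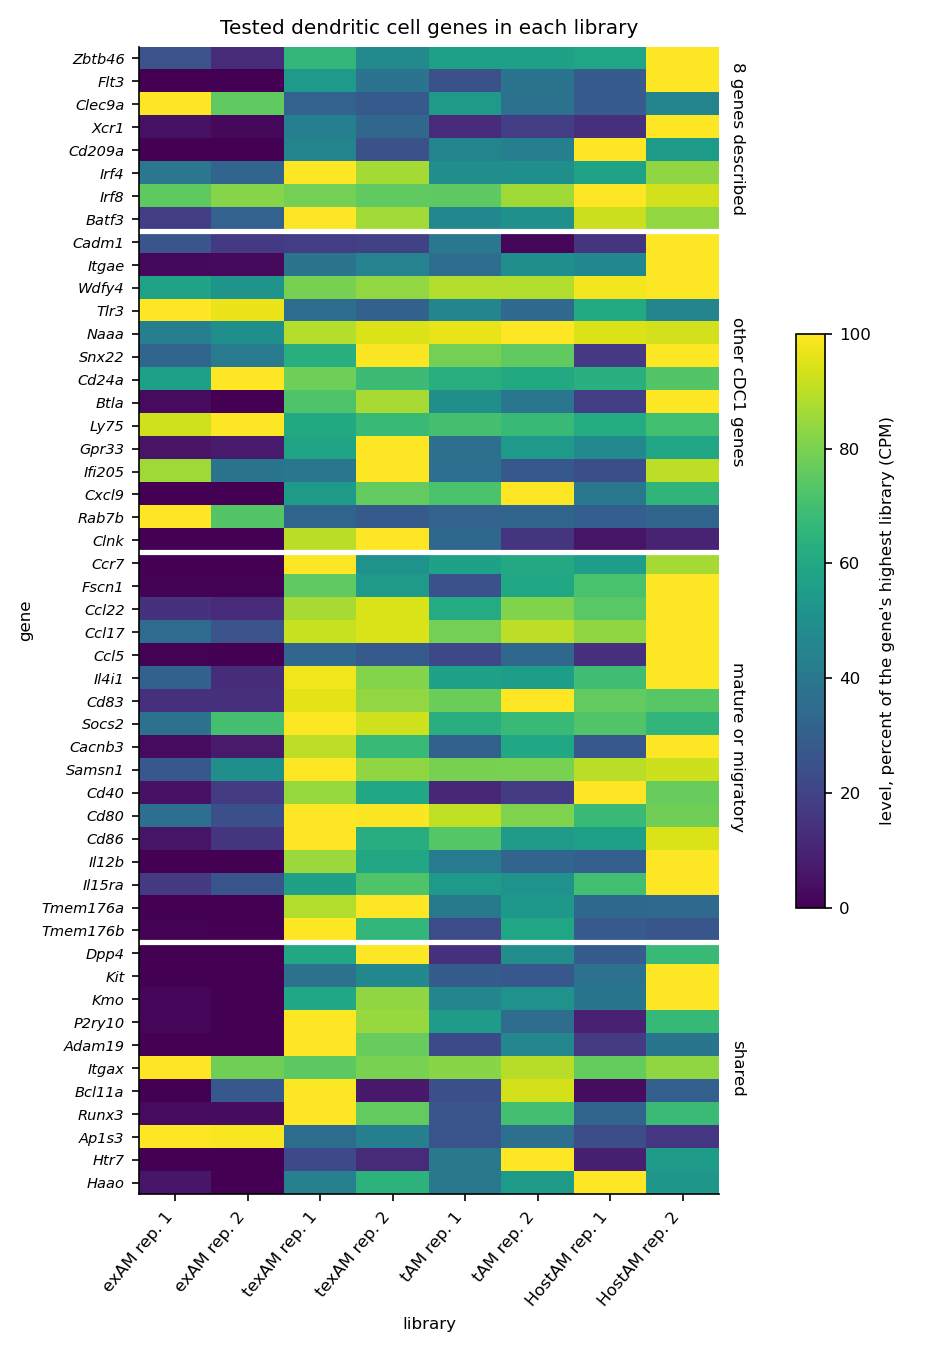
Level of each tested gene (rows, in 4 blocks: the 8 genes described, other cDC1 genes, genes of mature or migratory dendritic cells, and genes shared by dendritic cells) in the 8 libraries (columns), as a percent of that gene's highest library in CPM. Both exAM columns are at 0 for Flt3, Cd209a, Ccr7 and Kit among others, while they hold the highest value of Clec9a, Tlr3, Rab7b and Ap1s3 among others. The second HostAM column holds the highest value of Flt3, Xcr1 and Zbtb46.

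Other genes of the same cells were read from lists compiled by hand, in which several genes (Epcam, Itgax, Sirpa and Ly75 among them) are also expressed by alveolar macrophages. Of 14 tested cDC1 genes, 7 were lower and 3 higher in exAM than in HostAM, beside 23.3% and 20.9% of all tested genes. The list's median log2 difference was -0.94, or -0.87 with genes at 0 set to their bound. The interferon-induced chemokine Cxcl9 had no count in exAM and a mean of 20.4 CPM in tAM, so that exAM was at least 83.6-fold lower (edgeR adjusted p = 2.53e-05). Btla had 2 counts in exAM, 31.5-fold below tAM with a counting interval of 8.98 to 279.9 (edgeR adjusted p = 0.00539). Rab7b, a small GTPase of the endosome, and Tlr3, the endosomal sensor of double-stranded RNA, were higher in exAM than in tAM, at 153 against 56.3 CPM and 111 against 45.1 CPM (edgeR adjusted p = 9.91e-05 and 0.000517). Of 11 tested cDC2 genes 8 were lower and 2 higher in exAM than in HostAM, beside the same shares of all tested genes. The adhesion molecule Epcam was at least 418-fold lower and Cd209b, a relative of Cd209a, 5.00-fold lower (edgeR adjusted p = 6.73e-08 and 0.0325). The lectin Clec4a2 was 1.61-fold higher (edgeR adjusted p = 0.0175).

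On the list of mature or migratory dendritic cell genes, 16 of 17 tested were lower in exAM than in HostAM and none higher. Against tAM 15 of 17 were lower and none higher. Of all tested genes 23.3% and 23.2% were lower in these comparisons, and 20.9% and 21.5% higher. The list's medians were -2.83 and -2.58. All 17 were higher in texAM than in exAM, beside 23.2% of all tested genes, with a median of 2.78. With 1 library left out, 15 to 17 were called against HostAM and 14 to 15 against tAM. Ccr7, the receptor that guides dendritic cells to lymph nodes, had 0 counts in exAM and stood at 80.7 and 41.6 CPM in texAM, 46.1 and 48.8 in tAM, and 45.3 and 69.7 in HostAM. Tmem176a, a membrane protein, also had 0 counts in exAM and a mean of 36.2 CPM in texAM, at least 149-fold higher. Ccr7 is expressed by T cells as well, and the T cell receptor component Cd3e likewise had 0 counts in exAM and 12.9 to 82.0 CPM in the lung. Of 11 tested T and NK genes, 8 were lower in exAM than in tAM and 1 higher, beside 23.2% and 21.5% of all tested genes. Of the 14 T and NK genes in the table, 8 and 7 were at 0 in the exAM libraries. Their sum there, 418 and 373 CPM, was mostly the cytokine receptor Il7r, at 382 and 305 CPM. The part of lymphocytes in these values was not tested.

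Markers of other lung cells also differed between the sorted libraries and the unsorted cultures. Of 13 tested epithelial and mesenchymal genes, 9 were lower and 3 higher in exAM against either tAM or HostAM. Of all tested genes 23.2% were lower and 21.5% higher against tAM, and 23.3% and 20.9% against HostAM. Cdh1 stood at 422 and 374 CPM in exAM and 207 to 264 in the lung. Apart from it, the listed genes summed to 56.3 and 62.3 CPM in exAM and 252 to 556 in the lung. The airway epithelial gene Bpifa1 had 0 counts in exAM and 84.1 to 190.1 CPM in the lung, while the endothelial cadherin Cdh5 stood at 28.6 and 17.7 CPM in exAM and 0 in every lung library. Of 6 tested B lymphocyte genes 4 were lower in exAM than in tAM, and 2 were without tAM replicate 2, exAM replicate 1 or exAM replicate 2. Apart from Cd22, at 186 and 189 CPM in exAM and 194 to 285 in the lung, their sum was 1.71 and 0.154 CPM in exAM and 8.46 to 31.4 in the lung. Of 9 tested monocyte and granulocyte genes 5 were lower and 2 higher in exAM than in tAM, and 6 and 2 against HostAM. Apart from Cxcr2, the highest of them in exAM, their sums were 70.5 and 51.2 CPM in exAM and 149 to 351 in the lung. Their part in the members' differences between culture and lung was not tested.

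Of 11 shared dendritic cell genes 8 were lower and 1 higher in exAM against either tAM or HostAM. Of all tested genes 23.2% were lower and 21.5% higher against tAM, and 23.3% and 20.9% against HostAM. The list's median against HostAM was -5.83, or -4 with genes at 0 set to their bound. Kit had 0 counts in exAM, at least 64.9-fold below HostAM, and the metalloprotease Adam19 was at 0.488 against 45.0 CPM, 92.2-fold lower (edgeR adjusted p = 4.62e-05). Ap1s3, an adaptor subunit, was 5.07-fold higher (edgeR adjusted p = 0.00477). Of 12 plasmacytoid dendritic cell genes 5 were lower and 1 higher in exAM than in HostAM, beside 23.3% and 20.9% of all tested genes. The plasmacytoid marker Siglech reached at most 2.64 CPM, and Ly6d had no count in any library. With all 8 libraries, edgeR called no gene of the dendritic cell lists among the lung groups. On the T and NK list Cd4 was called, at a mean of 71.3 CPM in texAM and 5.59 in HostAM, 12.8-fold higher (edgeR adjusted p = 0.0306). No gene of that list was called without texAM replicate 1, texAM replicate 2 or HostAM replicate 1, and 3 were without HostAM replicate 2.

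Of 23 genes of the IRF and BATF families and partner factors, 14 were lower in exAM than in HostAM and 3 higher. Of all tested genes 23.3% were lower and 20.9% higher. The list's median was -0.97. Against tAM 12 of the 23 were lower and 3 higher, beside 23.2% and 21.5% of all tested genes, with a median of -0.76. Batf, the relative of Batf3 that can stand in for it, was at 14.6 and 12.2 CPM in exAM and 66.5 to 83.3 CPM in the lung libraries, 5.61-fold below tAM (edgeR adjusted p = 7.01e-06). Irf1, an interferon-induced member, was 4.22-fold below HostAM (edgeR adjusted p = 2.07e-05). Irf3, Irf5, Irf7 and Irf9, chosen after their values were seen, were also called lower in exAM against both groups, and Irf2 was called lower against tAM (edgeR adjusted p = 0.0173) and not against HostAM (edgeR adjusted p = 0.115). Spi1, which encodes PU.1, the partner of Irf4 and Irf8 on composite sites, was at 328 CPM in exAM, 299 in tAM and 291 in HostAM (edgeR adjusted p = 0.318 and 0.191). With 1950 to 2724 counts, up to 1.34 per base, it was over the limit of 0.5.

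Id2, an inhibitor of E proteins needed for cDC1 and many other lineages, was at 238 and 261 CPM in exAM and 43.9 to 67.8 CPM in the lung, 4.83-fold above HostAM (edgeR adjusted p = 9.71e-06). Jun, an AP-1 subunit, was 1.93-fold above HostAM (edgeR adjusted p = 0.00117). After 4 months in the lung Id2 was 4.18-fold lower in texAM than in exAM (edgeR adjusted p = 1.74e-05), and Batf 5.12-fold higher (edgeR adjusted p = 1.1e-05).

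**Figure D4:**
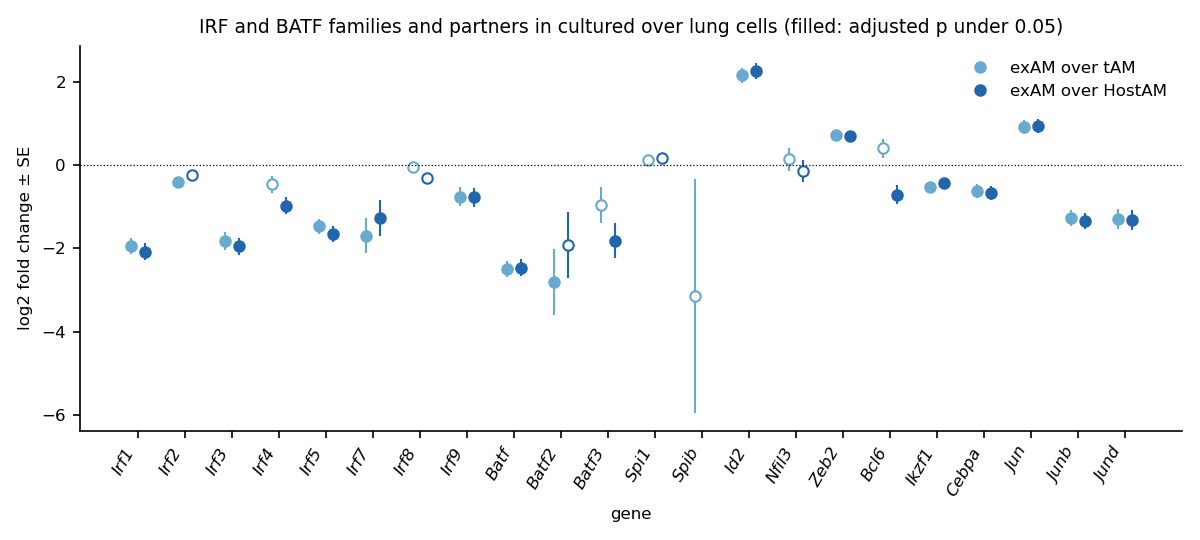
Log2 fold change with its SE (vertical axis) of genes of the IRF and BATF families and partner factors in exAM over tAM (light) and over HostAM (dark), 1 point per gene and comparison, filled where the adjusted p was under 0.05. Irf8 and Spi1 lie near 0 and unfilled, and Id2, Zeb2 and Jun lie above 0. Of these, Spi1, Id2 and Zeb2 were over 0.5 counts per base. Spib over HostAM is not drawn because it had 0 counts in exAM. Its point over tAM is drawn but rests on 0 counts in exAM and 1 count in each tAM library.

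The genes whose log2 CPM followed a member most closely over the 8 libraries were found among 9130 or 9131 genes with at least 10 CPM. They were Lrmp, Slc36a1 and Depp1 for Zbtb46 (Pearson r from 0.977 to 0.989) and Adam23, Top3b and Phf1 for Flt3 (0.992 to 0.995). For Clec9a they were Dync1li2, Nf1 and Atp5j (0.972 to 0.991), and for Xcr1 Lif, Scaf8 and Arfrp1 (0.949 to 0.955). For Cd209a they were Ppp2r5a, Rnf123 and Mri1 (0.986 to 0.987), for Irf4 Arfrp1, Gng2 and Bard1 (0.944 to 0.959), for Irf8 Bud13, Dapk1 and Dhx37 (0.959 to 0.979) and for Batf3 Mllt6, Crebzf and Dmac2 (0.971 to 0.978). Such values are easily reached where a gene differs mainly between exAM and the lung: 11.1% of the genes had an r over 0.9 with Flt3 and 9.45% with Cd209a, against 0.164% with Irf8. The points share 4 groups and their library scaling.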

How the data were processed

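RNA was amplified by single-primer isothermal amplification before library preparation, per the labels' protocols. The deposited values are counts of reads per Ensembl gene, whole numbers that the authors did not normalize. The submitters' processing notes list Bowtie, HTSeq 0.6.1 and R 3.3, with GRCm38 as the build, and strand setting and parameters are not given in the sources used here. Columns abbreviated teAM were matched to texAM by title.

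The 8 genes and all lists were chosen with earlier results of these data known. Counts were fitted with edgeR 4.0.16 (R 4.3.3): filterByExpr with a minimum of 10 counts, TMM, a robust quasi-likelihood model over all 8 libraries with 1 coefficient per group (4 residual degrees of freedom, biological coefficient of variation 0.22), and an F test of each pair of groups. The SE is the log2 difference over the root of F, and intervals use the moderated degrees of freedom. The floor for a group at 0 is 3 counts over the group. Positions and lengths are from GENCODE M21, which held 87.4% of the IDs. Listed genes were named as the 2 largest called changes per direction with at least 5 CPM, with exceptions. Not all exceptions are marked: Siglech, Ly6d, Spi1 and Zeb2 are among them. The genes left out of summed list levels were chosen after their values were seen. Results on some listed genes are not reported here. Scripts were tested on simulated counts. DESeq2 1.42.0 gave an alternative.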

Additional observations from a re-analysis of the deposited data

How the results depend on the processing

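Over all alternatives, 613 values of a member in a comparison were recomputed, of which 563 kept their direction and their side of the threshold. Calls were lost in 25 and gained in 7, and 18 changed sign without a call in either fit. Of the lost calls 9 were in exAM against tAM, 10 in texAM against exAM and 6 in exAM against HostAM. The lung comparisons, with no member called, had none to lose, so the total of 563 says little of how stable the calls are. The alternative that asked for at least 2-fold kept the fitted values, so no sign could change in it. No called member changed sign. In exAM against tAM 2 to 3 members were called with 1 library left out, in texAM against exAM 4 to 6 and in exAM against HostAM 5 to 7. In texAM against tAM, where edgeR called 0, 1 member, Irf4, was called without a filter on low counts and 1, again Irf4, by the DESeq2 Wald test. With the replicate number as a block, 4, 7 and 7 members were called in exAM against tAM, texAM against exAM and exAM against HostAM, and 0 in the lung comparisons, as without it. The number is no evidence of pairing: same-numbered libraries deviated with correlations of -0.06 to 0.01. Scaling by library size alone moved the median of all genes in exAM against tAM from -0.09 to -0.29 and the share of calls that were higher from 48.0% to 34.5%, and in texAM against exAM from 0.11 to 0.33 and from 53.1% to 68.1%. Counts of called genes among lung groups depended on the tool: in texAM against tAM 1 gene was called by edgeR, 73 by DESeq2 and 238 without a filter. In tAM against HostAM edgeR called 6 genes of all, against 190 with DESeq2 and 425 without a filter, and in texAM against HostAM 48 against 385 and 694. Depth limits Cd209a, with at most 21 counts in a library, and Xcr1, with 4 and 2 counts in exAM.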
